A study of Mus musculus with 8 samples.

Results

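The cytosolic ribosomal protein genes of the mouse were followed in YFP-positive and YFP-negative stromal cells of the small intestine. Genes were taken by symbol: names that start with Rpl or Rps and go on with a number, with at most a short a, x, y or l ending, together with Rpsa, Rplp0, Rplp1 and Rplp2. Names marked as pseudogenes by -ps and the S6 kinase genes were left out. The rule found 89 of the 53801 genes listed. Of these, 77 encode the standard proteins, 46 of the large and 31 of the small subunit, and 12 are paralogues or retrocopies, of which the annotation gives 6 as pseudogenes. For 80 genes the counts were high enough to be tested, namely 44 standard large-subunit genes, 31 standard small-subunit genes and the paralogues Rpl3l, Rpl22l1, Rpl7l1, Rps27l and Rps4l. The other 9 were not tested: Rpl13, Rpl24, Rpl10l, Rpl32l, Rps12l1 and Rps3a3 were listed at 0 in all 8 libraries, and Rps3a2, Rpl39l and Rpl6l had 7, 3 and 2 counts over all libraries.

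Ribosomes are built from ribosomal RNA and one copy of most of these proteins, the acidic stalk proteins being the main exception. Because the subunits need their parts in fixed proportions, cells make these messages at coordinated levels, and many start with a cytosine followed by a run of pyrimidines, the terminal oligopyrimidine (TOP) element through which growth signalling by mTORC1 controls their translation. Fibroblast-like stromal cells of the gut secrete much of the extracellular matrix and use this machinery heavily.

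Both groups were CD45-negative, CD31-negative cells sorted from intestinal ulcers of LTβR-YFP mice (LTBRYFP in the title) that had received indomethacin, an anti-inflammatory drug known to cause ulcers in the gut. The first group, 4 libraries, expressed the YFP reporter, and the second, also 4 libraries, did not. Every library therefore shares the allele, the drug and the sort gate, and no untreated mouse was analysed here. How the reporter is expressed relative to Ltbr, the lymphotoxin beta receptor gene, and the age of the mice were not found in the labels. Nothing in the labels ties a library to an animal, so the p-values reflect the spread among these libraries and may be technical in part. Libraries held 12481608 to 29385718 counts. Values in CPM are counts per 1e+06 gene counts scaled by TMM factors, except that sums over marker lists are unscaled. Fibroblast markers were abundant, at 21048 to 34646 CPM in YFP-positive libraries and 24089 to 47964 in YFP-negative libraries, summed over 6 genes, with none at 0. Of the gate genes, Ptprc, which encodes CD45, averaged 5.52 ± 4.68 CPM in YFP-positive and 2.60 ± 1.57 CPM in YFP-negative cells (SD, n = 4 each). Pecam1, which encodes CD31, averaged 28.6 ± 14.6 and 25.9 ± 16.3 CPM in the same order of groups (SD, n = 4 each). The median over all genes tested was 12.9 CPM, so Ptprc averaged below it and Pecam1 above it. Epithelial markers summed to 2.56 to 157 CPM in YFP-positive and 2.90 to 22.2 CPM in YFP-negative libraries, endothelial markers to 23.1 to 155 and 24.4 to 76.9 CPM, and erythroid markers to at most 3.85 and 1.76 CPM, in that order of groups. In bulk samples such as these, fewer cells of a type and less RNA per cell cannot be told apart.

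The start regions of 10 genes are shown because the TOP element lies there and because the paralogues can be set beside the standard genes. Each line gives 15 bases before and 15 bases from the RefSeq transcript start on (GRCm38.p6), 5′ to 3′ on the gene's strand. Capitals mark the first transcribed base and, where it is a C followed by at least 4 pyrimidines, the whole pyrimidine run.
Rps6, chr4:86857353-86857382, minus strand: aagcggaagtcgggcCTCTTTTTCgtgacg
Rplp2, chr7:141447636-141447665, plus strand: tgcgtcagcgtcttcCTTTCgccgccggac
Rpl28, chr7:4792950-4792979, plus strand: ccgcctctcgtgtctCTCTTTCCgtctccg
Rpl35a, chr16:33056467-33056496, plus strand: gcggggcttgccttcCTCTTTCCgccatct
Rps10, chr17:27635230-27635259, minus strand: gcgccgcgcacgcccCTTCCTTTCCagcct
Rps27, chr3:90213634-90213663, minus strand: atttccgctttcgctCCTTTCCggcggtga
Rps27l, chr9:66946071-66946100, plus strand: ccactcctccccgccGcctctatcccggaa
Rps12, chr10:23787195-23787224, minus strand: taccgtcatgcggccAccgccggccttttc
Rpl3l, chr17:24727811-24727840, plus strand: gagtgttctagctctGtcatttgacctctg
Rpl22l1, chr3:28805493-28805522, plus strand: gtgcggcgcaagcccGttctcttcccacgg
The first 6 begin with such a run, and the last 4 do not at these starts. RefSeq start windows were matched for 64 of the 89 genes, 59 of them tested. A C at an annotated start followed by at least 4 pyrimidines was found in 13 of those 59 (22.0%), against 3.01% of 27025 genes in the table. Annotated starts can lie some bases away from those used in a given cell, and the absence of these letters says nothing of the true start.

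None of the standard genes and none of the paralogues passed the test between YFP-positive and YFP-negative cells. edgeR's quasi-likelihood test on group alone, with Benjamini-Hochberg adjustment, called 0 of the 80 tested genes at an adjusted p of 0.05 or below, where the background was 0% of 15945 genes. At an unadjusted p of 0.05 or below it took 1 of the 80, Rpl3l, against 2.04% of all genes. With the replicate number as a block, which the data supported as a pairing of the libraries, 0 of 80 were called while 364 genes (2.28%) were called in all. At an unadjusted p of 0.05 or below the blocked fit took 5 of the 80, against 11.1% of all genes: Rpl3l higher, where 4.69% of genes were, and Rps12, Rps20, Rplp0 and Rpl21 lower, where 6.42% were. DESeq2 called 0 of the 80 without the block, where it called 0.0068% of genes, and 0 with the block, where it called 3.21%. The authors' deposited table also has 0 of the 80 at an adjusted p of 0.05 or below, against 3.01% of the genes to which it gives one.

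The sizes of the differences were small and were measured closely. Log2 fold changes, YFP-positive over YFP-negative, had a median of -0.05 over the 80 genes in both fits, beside 0.00 over all genes tested. With the block, the standard genes lay between -0.21 for Rps12 and 0.14 for Rpl29, and without it between -0.22 for Rps12 and 0.16 for Rpl13a. The median standard error of a fold change was 0.08 on the log2 scale for the 80 genes with the block, against 0.19 for all genes tested. The standard genes were also more abundant, with a median level of 127 CPM against 12.9 CPM for all genes tested. Neither these errors nor the intervals below were compared at equal abundance. The 95% interval with the block lay inside a 1.5-fold change in either direction for 78 of the 80 genes, where 47.6% of all genes tested had such an interval; the exceptions were Rpl3l and Rps4l. Without the block 76 of 80 did, Rpl13a and Rpl35a being further exceptions. These intervals are the range of change that the 8 libraries leave for each gene, and do not show equal expression.

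**Figure D1:**
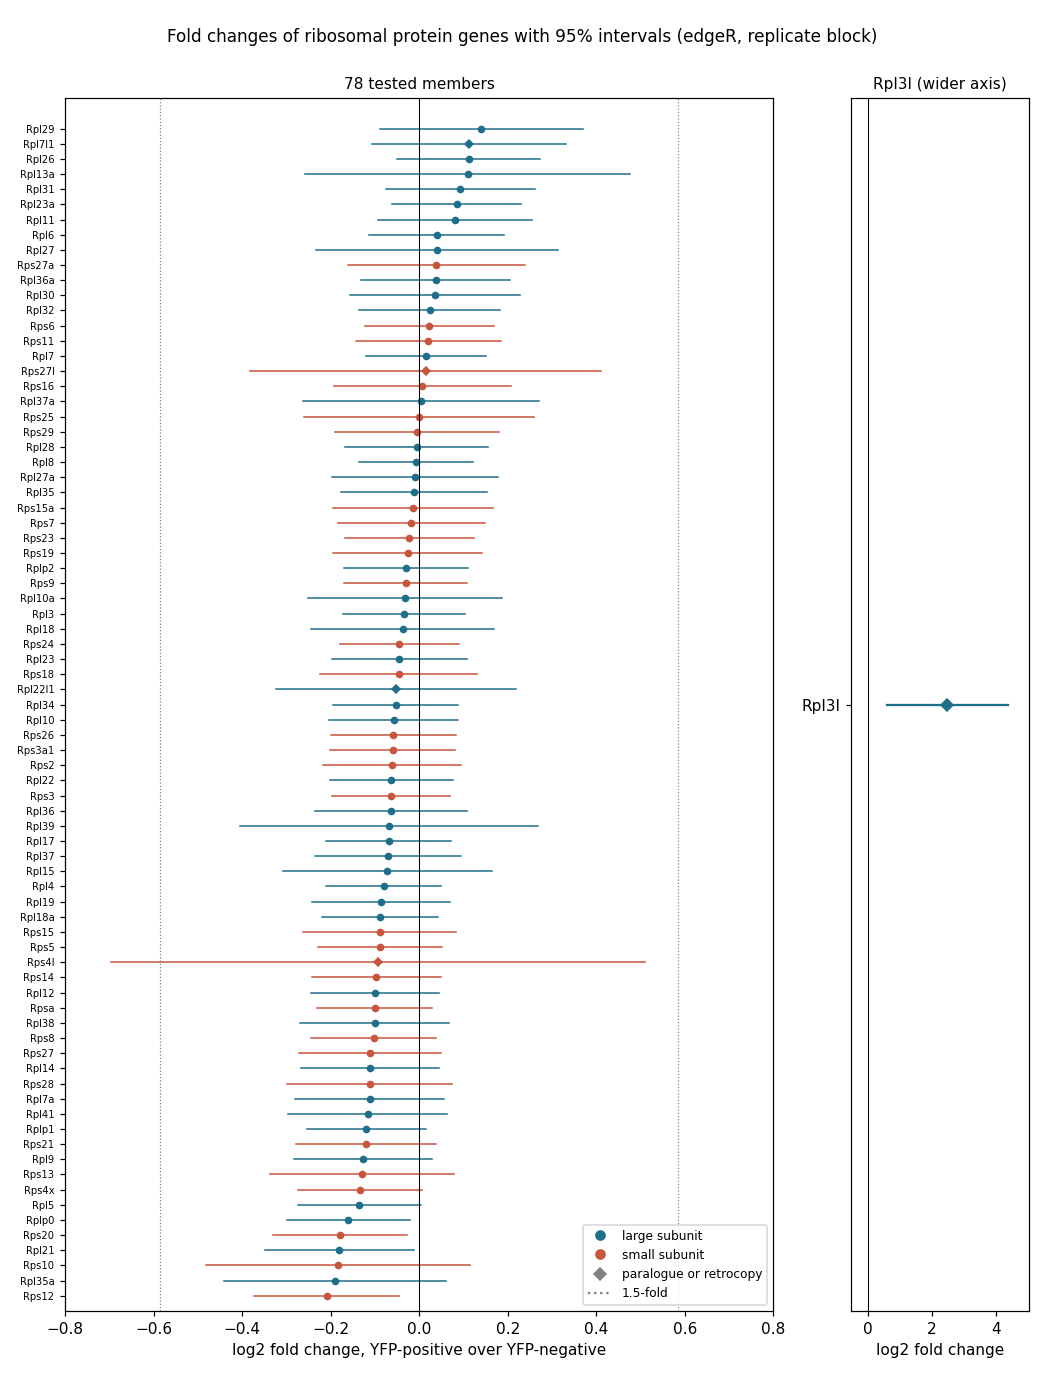
Log2 fold change of 79 of the 80 tested genes, YFP-positive over YFP-negative, from edgeR with the replicate block, with 95% intervals as lines; circles are standard genes, diamonds paralogues, blue the large and red the small subunit, and dotted lines mark 1.5-fold. The standard genes sit between -0.21 and 0.14, and Rpl3l, on a wider axis, sits at 2.48.

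More of the genes leaned lower than higher in YFP-positive cells. The log2 fold change was below 0 for 60 of 80 genes with the block, against 49% of all genes tested, and for 57 without it, against 49.1%. The shift touched both subunits, with blocked medians of -0.05 over the 44 large-subunit genes and -0.06 over the 31 small-subunit genes. It was smaller than the spread between libraries, since the median deviation of the tested genes varied with an SD of 0.10 on the log2 scale over the 8 libraries. The sign changed when the counts were scaled by total counts alone and not by TMM factors: the median was then 0.03 in both fits, while the median relative to that of all genes was then -0.06. Over 28 settings the relative median ran from -0.10 to -0.01. The fibroblast marker sum given above was lower on the YFP-positive side of each pair, with Col1a1, Col1a2, Col3a1 and Dcn called lower with the block. Pdgfra, at 1670 CPM in YFP-positive and 1668 CPM in YFP-negative cells, and Pdpn were not called. They were higher on the YFP-positive side of 2 and 1 of 4 pairs. The sum of 6 immediate early genes was also lower on the YFP-positive side of each pair. It was 4015 to 11598 CPM in YFP-positive and 6360 to 13251 CPM in YFP-negative libraries, with no gene called and none at 0. Their part in the lean of the ribosomal protein genes was not tested.

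Pair by pair, the direction was not the same throughout. In the pair numbered 1, 51 of the 75 standard genes were higher in the YFP-positive library, with a median log2 ratio of 0.07. In pairs 2, 3 and 4, 26, 12 and 15 of the 75 were higher, with medians of -0.08, -0.12 and -0.10. Of the 75, 11 were lower in 4 of 4 pairs and 0 were higher in 4 of 4, where 10.2% and 8.86% of all genes tested were so. The groups did not overlap for 3 of the 80 genes, against 1.55% of all genes tested. They were Rpl3l, higher (0.69% of all genes), and Rps12 and Rps4x, lower (0.859% of all genes).

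**Figure D2:**
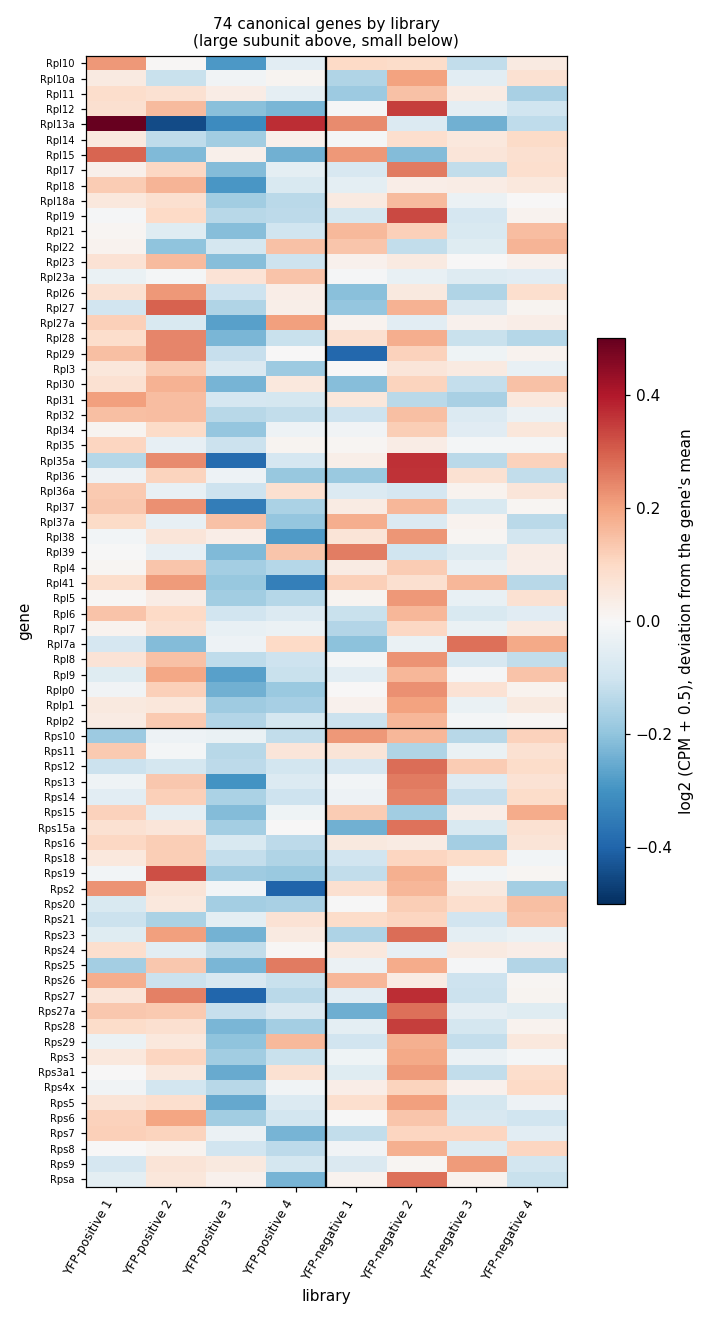
Deviation of each of 74 of the 75 standard genes from its own mean in log2 (CPM + 0.5), with the 4 YFP-positive libraries left and the 4 YFP-negative libraries right of the line. Red is above and blue below the gene's mean; most genes are red in library 2 of both groups and blue in YFP-positive library 3.

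The summed counts were also close between the groups. All 89 genes together took 1.22, 1.26, 1.16 and 1.21% of gene counts in YFP-positive libraries 1 to 4, and 1.15, 1.25, 1.21 and 1.14% in YFP-negative libraries 1 to 4. The groups overlapped, library 2 being the highest in both, and the means were 1.21 ± 0.04% and 1.19 ± 0.05% (YFP-positive and YFP-negative, SD, n = 4 each). The share was higher on the YFP-positive side of 3 of 4 pairs, the opposite side from the TMM-scaled median. The mitochondrially encoded genes, which are part of the total, took 7.71 to 9.43% in YFP-positive and 8.07 to 12.4% in YFP-negative libraries and were lower on the YFP-positive side of each pair. With those genes out of the total, the ribosomal protein share was 1.32 ± 0.05% in YFP-positive and 1.31 ± 0.05% in YFP-negative libraries. That share was higher on the YFP-positive side of 2 of 4 pairs, as was the share of protein-coding counts. TMM factors ran from 0.989 to 1.07 in YFP-positive and from 0.942 to 1.03 in YFP-negative libraries. The ratio of large-subunit to small-subunit counts was 1.516 ± 0.028 in YFP-positive and 1.498 ± 0.013 in YFP-negative libraries, with overlapping groups and a higher value on the YFP-positive side of 2 of 4 pairs.

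**Figure D3:**
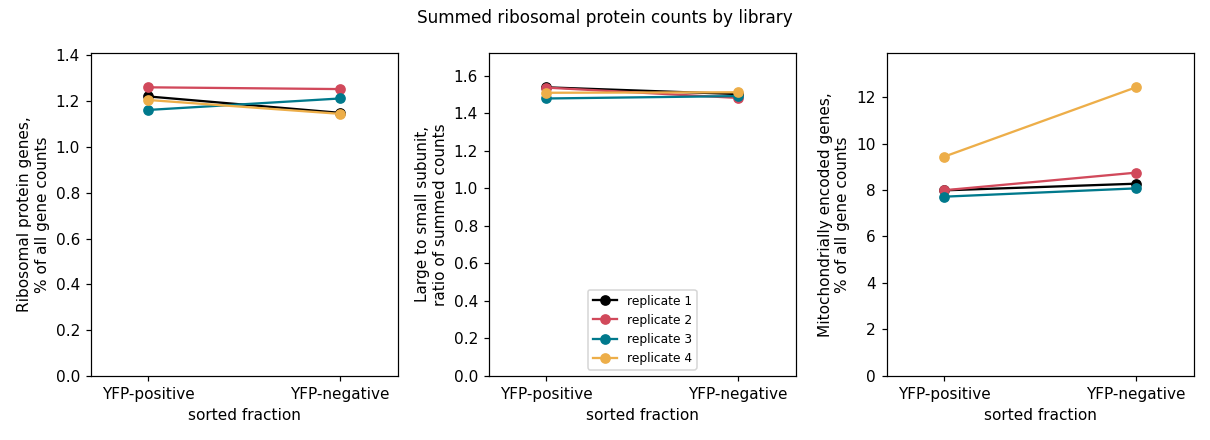
Share of all gene counts in the 89 ribosomal protein genes, ratio of large-subunit to small-subunit counts, and share in mitochondrially encoded genes, for YFP-positive (left) and YFP-negative (right) libraries; lines join equal replicate numbers. The ribosomal protein share lies between 1.14 and 1.26% in all 8 libraries, and the mitochondrial share is lower in the YFP-positive library of each pair.

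Levels differed far more between genes than between the groups. Per kilobase of exon outside other genes on the strand, the 75 standard genes ranged from 8.01 CPM per kb for Rpl35a to 898 CPM per kb for Rplp1, with a median of 73.3 and quartiles of 37.7 and 139. Rplp1, a stalk protein, was followed by Rpl8 at 330 CPM per kb and Rpl4 at 317 CPM per kb; both are structural proteins of the large subunit's core. Rpl36, also of the large subunit, had 247 CPM per kb and Rplp0, the base of the stalk, 245 CPM per kb. The union of annotated exons was used for length, so a gene with a rarely used long exon is placed too low. The counting settings are not given, so reads from introns may be among the counts. Such reads would raise a value per kb of exon, also in the paralogue proportions below. This order is also touched by the counting. Rpl13a, with 88.6% of its span inside genes on the same strand, had only 3241 counts in all.

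**Figure D4:**
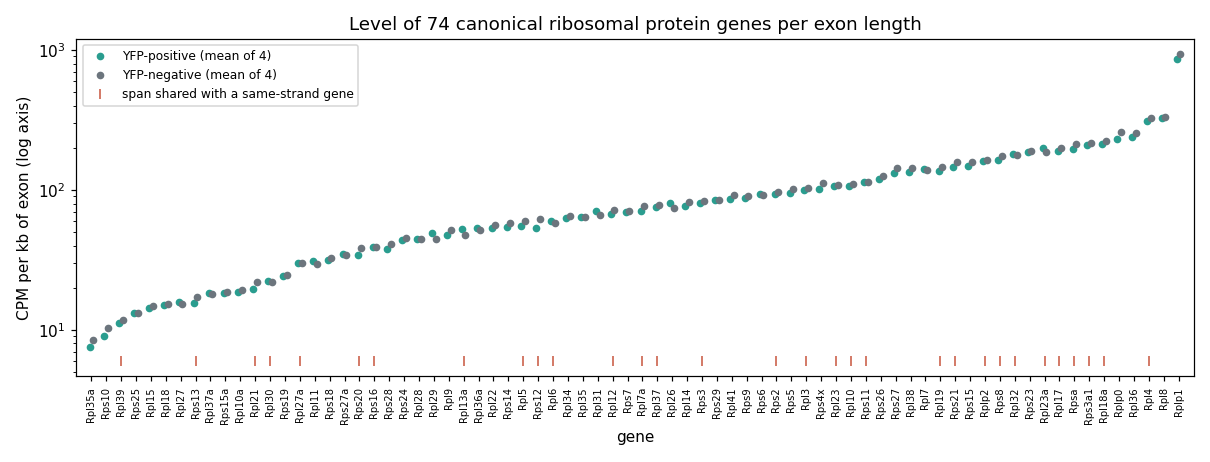
Mean level of 74 of the 75 standard genes in CPM per kb of exon on a log axis, ordered by the mean of all libraries, with YFP-positive (left point) and YFP-negative (right point) means of 4 libraries. The points of each pair nearly coincide along a range from 8.01 to 898 CPM per kb; red ticks mark the 31 genes that share part of their span with a gene on the same strand.

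Among large-subunit genes, the stalk was measured most deeply. The stalk recruits elongation factors to the ribosome: Rplp0 anchors it, and Rplp1 and Rplp2 form its dimers. Rplp0 had 400, 440, 343 and 356 CPM in YFP-positive libraries 1 to 4, against 406, 475, 425 and 410 CPM in YFP-negative libraries 1 to 4. Rplp0 was lower in the YFP-positive library of each of the 4 pairs, yet the groups overlapped, since YFP-positive library 2 exceeded 3 YFP-negative libraries. Its log2 fold change was -0.16 ± 0.07 (SE) with the block, with an unadjusted p of 0.026 and an adjusted p of 0.332 by edgeR. Rplp1 averaged 430 ± 39.0 CPM in YFP-positive and 466 ± 32.9 CPM in YFP-negative cells, and its log2 fold change was -0.12 ± 0.06 with an adjusted p of 0.536 (edgeR, block). Rplp2 averaged 310 ± 27.2 and 317 ± 25.4 CPM in YFP-positive and YFP-negative cells, a log2 fold change of -0.03 ± 0.07.

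Rpl21, a large-subunit protein, had 68.3, 65.0, 58.4 and 63.2 CPM in YFP-positive libraries, against 75.8, 73.5, 64.3 and 75.4 CPM in YFP-negative libraries. Each pair was lower on the YFP-positive side, with overlap between the groups through YFP-negative library 3; the blocked edgeR adjusted p was 0.392 at a log2 fold change of -0.18 ± 0.08. Rpl35a, mutated in some patients with Diamond-Blackfan anaemia, averaged 26.4 ± 4.86 CPM in YFP-positive and 30.0 ± 4.50 CPM in YFP-negative cells, a log2 fold change of -0.19 ± 0.12. At the other end of the order, Rpl29 averaged 55.3 ± 6.13 CPM in YFP-positive and 50.3 ± 7.32 CPM in YFP-negative cells. The blocked log2 fold change of Rpl29 was 0.14 ± 0.11, with an edgeR adjusted p of 0.740. That value rested on pair 1, whose log2 ratio was 0.55: without pair 1 the blocked fold change of Rpl29 was 0.0071 on the log2 scale. Rpl26, which in human cells also binds the p53 message, averaged 117 ± 10.8 and 108 ± 10.8 CPM in YFP-positive and YFP-negative cells, a log2 fold change of 0.11 ± 0.08. Rpl13a varied most between libraries among the standard genes: it had 26.9, 12.8, 14.2 and 23.0 CPM in YFP-positive libraries and 20.98, 16.9, 14.9 and 16.2 CPM in YFP-negative libraries, an SD of 0.36 on the log2 scale. The highest and the lowest values of Rpl13a both lay in YFP-positive libraries.

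Rpl5 and Rpl11 form with 5S ribosomal RNA the particle that binds Mdm2 when ribosome assembly fails, which raises p53. Rpl5 had 221, 226, 195 and 200 CPM in YFP-positive libraries, against 222.1, 256, 215 and 232 CPM in YFP-negative libraries. Rpl11 had 86.3, 85.6, 83.3 and 78.7 CPM in YFP-positive libraries and 71.5, 89.8, 83.4 and 72.5 CPM in YFP-negative libraries. Rpl5 was lower on the YFP-positive side of each pair and Rpl11 of 2 pairs, and the groups overlapped for both. Their blocked log2 fold changes were -0.14 ± 0.07 and 0.08 ± 0.08, with edgeR adjusted p of 0.471 and 0.837. The list of p53 targets and regulators of ribosome stress had 0 of 11 genes called in either fit. Over all genes tested, 0% were called on group alone and 2.28% with the block, so 0 of 11 is near that share.

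In the small subunit, Rps12, a protein of the subunit's head, had the lowest fold change. Rps12 had 93.8, 95.1, 92.4 and 94.7 CPM in YFP-positive libraries, against 95.3, 123, 110 and 108 CPM in YFP-negative libraries. The YFP-positive values were tightly grouped and all lay under the lowest YFP-negative value, though the highest of them, 95.1 CPM, was close to it. The blocked log2 fold change was -0.21 ± 0.08 with a 95% interval of -0.37 to -0.04, and the edgeR adjusted p was 0.254 with the block and 1.00 without it.

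Rps20, whose protein also lies in the head, had 138, 151, 129 and 130 CPM in YFP-positive libraries, against 145, 159, 155 and 162 CPM in YFP-negative libraries. Rps4x, the X-linked standard copy of this protein's gene in the mouse, had 172, 163, 158 and 172 CPM in YFP-positive libraries, against 178, 188, 176 and 186 CPM in YFP-negative libraries. Both were lower on the YFP-positive side of each pair; the groups overlapped for Rps20 and were separate for Rps4x. The blocked edgeR adjusted p was 0.309 for Rps20 and 0.486 for Rps4x, at log2 fold changes of -0.18 ± 0.07 and -0.13 ± 0.07. Rps10 averaged 20.8 ± 1.10 CPM in YFP-positive and 23.8 ± 2.55 CPM in YFP-negative cells, a log2 fold change of -0.18 ± 0.14.

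Of the small-subunit genes with a known regulatory role, none stood out. Rps6, whose protein is phosphorylated by the S6 kinases downstream of mTORC1, had 159, 168, 130 and 137 CPM in YFP-positive libraries, against 146, 161, 139 and 136 CPM in YFP-negative libraries. Rps19, the gene most often mutated in Diamond-Blackfan anaemia in humans, averaged 114 ± 19.99 and 115 ± 10.2 CPM in YFP-positive and YFP-negative cells. Rps27a, which is made as a fusion with ubiquitin, averaged 68.8 ± 6.30 and 67.4 ± 10.51 CPM in YFP-positive and YFP-negative cells. The blocked log2 fold changes of these genes were 0.02, -0.03 and 0.04, each smaller than its standard error. Rpsa, a small-subunit protein also described as a laminin receptor, had 593, 639, 623 and 522 CPM in YFP-positive libraries, against 620, 744, 622 and 568 CPM in YFP-negative libraries. For Rpsa the groups overlapped, and its log2 fold change was -0.10 ± 0.06 with an edgeR adjusted p of 0.632 (block).

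The paralogues, some of which can replace a standard protein in some tissues, held the one large difference in fold. Rpl3l replaces Rpl3 in striated muscle; its gene lies at chr17:24727820-24736143 on the plus strand (GRCm38). Rpl3l had 25, 22, 20 and 50 counts in YFP-positive libraries 1 to 4, against 5, 4, 5 and 2 counts in YFP-negative libraries 1 to 4. On the depth-scaled axis these were 0.861, 1.52, 0.800 and 1.98 CPM in YFP-positive and 0.278, 0.341, 0.169 and 0.101 CPM in YFP-negative libraries. All 4 YFP-positive values lay above all 4 YFP-negative values. Rpl3l passed the count filter through the YFP-positive libraries, where it is high, so its entry into the test depended on the difference between the groups, and its unadjusted p supports nothing by itself. The log2 fold change was 2.48 ± 0.88 with the block, with a 95% interval of 0.60 to 4.35, and 2.55 ± 0.69 without it. It did not pass the test over all genes, with edgeR adjusted p of 0.229 with the block and 1.00 without it. The lowest adjusted p of Rpl3l in any blocked setting was 0.120 and the authors' deposited table gives 0.126. With single libraries or pairs left out the log2 fold change stayed between 1.98 and 2.79.

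Rpl3, the standard gene that Rpl3l stands in for, had 324, 341, 297 and 275 CPM in YFP-positive libraries and 312, 325, 322 and 304 CPM in YFP-negative libraries, with overlapping groups and a log2 fold change of -0.03 ± 0.06 (block). Per kilobase, Rpl3l reached 0.797 ± 0.400% of the level of Rpl3 in YFP-positive and 0.131 ± 0.062% in YFP-negative cells, so it was a trace beside its parent in both. Some smooth muscle and pericyte markers differed too: with the block, Acta2, Myh11 and Cspg4 rose and Rgs5 fell in YFP-positive cells, 4 of the 5 markers in that list, while the fifth, Des, was not called. Summed over the 5 genes, none of which was at 0, they held 1351 to 2184 CPM in YFP-positive and 1429 to 1949 in YFP-negative libraries. The pan-leukocyte markers summed to 17.3 to 74.6 CPM in YFP-positive and 15.3 to 27.1 in YFP-negative libraries, higher on the YFP-positive side of 4 of 4 pairs, with 0 of 5 tested genes called. Enteric glia markers summed to 1.51 to 3.81 CPM in YFP-positive and 4.93 to 32.5 in YFP-negative libraries, and S100b was at 0 in the 4 YFP-positive libraries. The part of these cells in the Rpl3l difference was not tested.

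For the other tested paralogues, the proportion to the parent gene differed between the groups by less than the spread between libraries. Rpl22l1, which can take the place of Rpl22, stood at 22.5 ± 4.80% of the per-kilobase level of Rpl22 in YFP-positive and 22.5 ± 5.34% in YFP-negative cells. Rps27l, a p53 target and paralogue of Rps27, stood at 14.03 ± 3.24% and 13.2 ± 4.50% of Rps27 in YFP-positive and YFP-negative cells. Rpl7l1 stood at 8.004 ± 0.84% of Rpl7 in YFP-positive and 7.49 ± 0.81% in YFP-negative cells. Rps4l, which the annotation gives as a transcribed processed pseudogene, stood at 5.44 ± 0.73% of Rps4x in YFP-positive and 5.36 ± 1.16% in YFP-negative cells. Rpl7l1 itself was higher on the YFP-positive side of each pair, with 39.5, 35.2, 40.0 and 41.8 CPM in YFP-positive libraries, against 36.7, 33.9, 37.7 and 36.5 CPM in YFP-negative libraries. For Rpl7l1 the groups overlapped and the edgeR adjusted p was 0.802 at a log2 fold change of 0.11 ± 0.10 (block). Rpl10l, a testis paralogue of Rpl10, was listed at 0, and Rpl39l, a paralogue of Rpl39 high in male germ cells, had 3 counts in all. Rpl10 averaged 206 ± 29.5 and 213 ± 14.8 CPM, and Rpl39, whose protein lines the exit tunnel, 16.1 ± 1.68 and 16.8 ± 1.99 CPM, each in YFP-positive and YFP-negative cells.

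**Figure D5:**
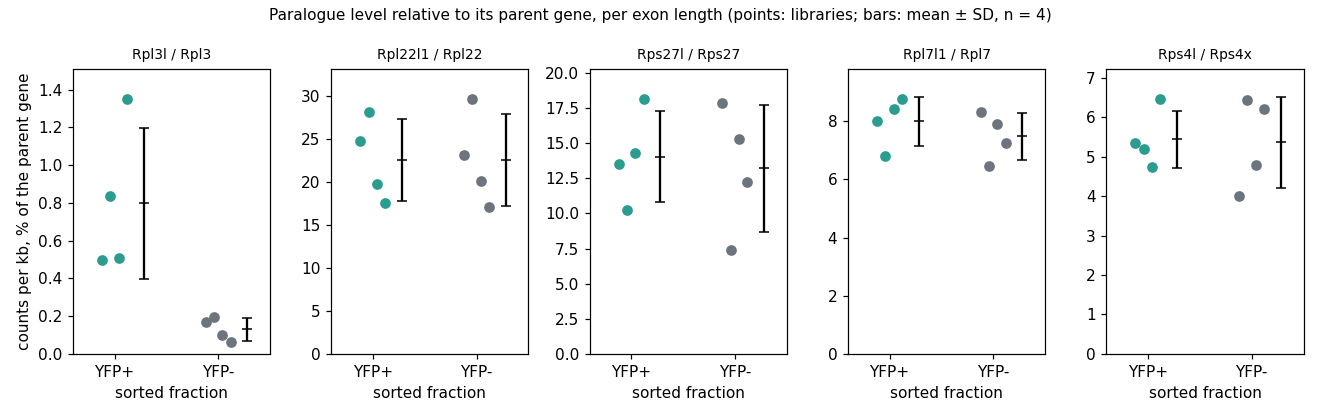
Counts per kb of 5 tested paralogues as a percentage of the parent gene, for YFP-positive (left) and YFP-negative (right) libraries; points are libraries and bars mean ± SD (n = 4). Rpl3l averages 0.797% of Rpl3 in YFP-positive and 0.131% in YFP-negative libraries with no overlap, and the groups overlap for the other 4 paralogues.

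The standard genes varied little and together. Over the 8 libraries the median SD of log2 CPM was 0.14 for the 75 genes, beside 0.30 for the 7233 tested genes at or above the lowest level among them. Library 2 of each group had the highest median deviation, 0.08 in YFP-positive and 0.15 in YFP-negative cells on the log2 scale, and YFP-positive library 3 the lowest, -0.15. With pair 2 left out, 0 of the 80 genes were called and their median log2 fold change was -0.05 (block). Among 9980 other genes, the one whose log2 CPM most resembled the mean of these genes was Eef1a1, the elongation factor that brings aminoacyl-tRNA to the ribosome, with a Pearson r of 0.973 over the 8 libraries. Tbpl1, Urb1, Rn7sk and Pdss1 came next, with r of 0.957, 0.952, 0.949 and 0.941. The libraries share depth and scaling between genes, and these values describe likeness only.

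Few of the genes that work with the ribosome were called. Over all genes tested, 2.28% were called with the block and 0% on group alone. The blocked log2 fold change was below 0 for 49% of them. Elongation factors and other TOP messages had 0 of 21 genes called, a blocked median log2 fold change of -0.05 and 15 genes below 0. Eef1a1 averaged 1197 ± 111 CPM in YFP-positive and 1225 ± 49.1 CPM in YFP-negative cells. In ribosome biogenesis and RNA polymerase I, 1 of 38 genes fell with the block and 0 rose, where 1.59% of all genes tested fell and 0.696% rose, and the median was 0.01. That gene was Nop2, a nucleolar methyltransferase of large-subunit ribosomal RNA, with 42.2, 68.6, 30.4 and 19.6 CPM in YFP-positive libraries, against 52.2, 86.7, 38.7 and 31.9 CPM in YFP-negative libraries. Nop2 was lower in each pair, the groups overlapped, and its log2 fold change was -0.42 with an edgeR adjusted p of 0.0405 with the block, which ran from 0.00743 to 0.242 over the blocked settings; without the block it was not called. The list of mTORC1 and its regulators had 0 of 21 called and the integrated stress response 0 of 14. Mitochondrial ribosomal protein genes, which build the separate ribosome of that organelle, had 0 of 75 tested genes called, with a blocked median of 0.12 and 24 genes below 0.

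Among the 13 tested genes with the pyrimidine run shown above at an annotated start, such as Rps6, Rplp2 and Rpl35a, the blocked log2 fold change had a median of -0.07 and ran from -0.19 to 0.02. In the 46 matched genes without one, among them Rps12 and Rpl3l, the median was -0.05 and the range -0.21 to 2.48. Other letters searched on both strands of the 300 bases from 250 before to 50 after each start were CCGGAAG, in 25 of the 59 genes (42.4%, against 9.93% of all genes in the table), and AAGATGGC, in 6 (10.2%, against 3.19%). CTCTTTCC, which can overlap the pyrimidine run, was in 10 (16.9%, against 3.57%).

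Rpl13 and Rpl24, at 0 in all 8 libraries, are genes that other members of their subunit would lead a reader to look for, and their place in the annotation is given here. Rpl13 (chr8:123102350-123105244, plus strand) lies wholly inside the span of Gm20388 (chr8:119910841-124345722, plus strand), a gene with 67780 counts. Rpl24 (chr16:55966275-55971435, plus strand) has 98.7% of its span inside Gm28037, which had 979 counts. Of protein-coding genes wholly inside the span of another gene on the same strand, 446 of 446 were at 0, against 189 of 803 (23.5%) inside a span on the opposite strand only and 3200 of 20718 (15.4%) inside no other span. A 0 for Rpl13 and Rpl24 is therefore a value of the table and not a measure of their expression. Rpl32l and Rps3a3, also at 0, lie wholly inside Map7 and Pde4d on the same strand, so their 0 is no measure of expression either. The components Fau and Rack1, which lie outside the naming rule, averaged 134 ± 19.4 and 322 ± 17.1 CPM in YFP-positive cells, against 129 ± 18.8 and 348 ± 22.8 CPM in YFP-negative cells, and neither was called. Reads of processed pseudogenes can be shared with their parents. The 291 genes named as ribosomal protein pseudogenes by -ps held 7825 counts, 0.380% of the 2059769 counts in the 89 genes. Pseudogenes under other names are not in that sum. It does not show how many reads the parents lost or gained, since the rule for shared reads is not given. Taking only the genes that share no span, the summed share was 0.617 ± 0.022% in YFP-positive and 0.602 ± 0.026% in YFP-negative libraries.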

How the data were processed

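RNA was sequenced from 8 libraries made with a low-input stranded total RNA kit, per the labels' protocols. Trimming, alignment and counting tools named in the submitters' processing notes are cutadapt 3.4, STAR 2.7.3a and featureCounts 2.0.1, beside DESeq2 and build GRCm38; the rule for reads that lie over several genes is not stated there. Raw counts per gene in the deposited table were the starting point. Its other columns are the authors' rounded normalised values, a score not used here, and, per the file headers, the authors' log2 fold changes, linear fold ratios and p-values.

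Here, counts were analysed in edgeR 4.0.16 (R 4.3.3): filterByExpr by group, TMM factors, a robust quasi-likelihood fit over all 15945 genes kept, two-sided tests and Benjamini-Hochberg adjustment over all of them, called at 0.05. CPM values are TMM-scaled; 0.5 was added before log2 where deviations were taken. Group alone was the design; the alternatives were the replicate number as a block, DESeq2 1.42.0, other scaling, other count filters, and libraries left out. Libraries of equal number deviated together (r of 0.328 to 0.592, against at most 0.0732 between different numbers), so equal numbers were treated as pairs; the data, not the labels, are the ground for this. Coordinates and exon lengths are from GENCODE M21, in which 53706 of 53801 identifiers were found, and start sequences from RefSeq. The members and lists were chosen with earlier results of these data known, so lists are described by counts and medians with no test of their own. The members described singly are those with the lowest adjusted p or the most extreme fold changes with the block, the most abundant per length, the paralogue pairs, the stalk genes with Rpsa, and genes of ribosome stress. Values of a few single genes are not reported here, and 1 standard gene is left out of the figures, though counts, medians and sums include it.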

Additional observations from a re-analysis of the deposited data

How the results depend on the processing

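No ribosomal protein gene was called in any of the 28 settings, and the summed share's difference (YFP-positive minus YFP-negative) stayed positive, at 0.00628 to 0.0436 percentage points with libraries left out. Of 862 recomputed fold changes of 32 members, 797 kept direction and side of the threshold and 65 turned, none of them called in any setting; the cause was not tested. With library sizes alone, log2 fold changes without and with the replicate block became 0.035 and 0.029 for Rpl10, 0.027 and 0.024 for Rpl22, 0.026 and 0.033 for Rpl22l1, 0.052 and 0.052 for Rpl3, 0.0082 and 0.022 for Rpl36, 0.020 and 0.019 for Rpl39, 0.0082 and 0.0061 for Rpl4, 0.077 and 0.080 for Rpl8, 0.056 and 0.057 for Rplp2, and 0.069 and 0.061 for Rps19. With libraries or pairs left out, ranges that crossed 0 were -0.13 to 0.035 for Rpl10, -0.038 to 0.31 for Rpl13a, -0.13 to 0.035 for Rpl22l1, -0.079 to 0.021 for Rpl3, -0.15 to 0.042 for Rpl36, -0.13 to 0.016 for Rpl39, -0.033 to 0.049 for Rpl7, -0.059 to 0.069 for Rpl8, -0.088 to 0.023 for Rplp2, -0.14 to 0.045 for Rps19, -0.21 to 0.011 for Rps27, -0.074 to 0.14 for Rps27a, -0.12 to 0.15 for Rps27l, -0.24 to 0.040 for Rps4l and -0.036 to 0.091 for Rps6. The members' median ran from -0.094 to -0.0065 with libraries left out.

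Over all genes, 0 were called by edgeR on group alone and 2 by DESeq2. With the replicate block 364 were called, 364 with RLE factors, 365 with library sizes alone, 370 with TMM factors from other genes, 367 without mitochondrial genes, 416 with the stricter filter, 673 with no filter and 495 by DESeq2; leaving out libraries or pairs gave 0 to 426. Without pairs 1, 3 and 4 the blocked counts were 194, 157 and 167. Among the pathway genes 0 were called on group alone, 1 with the block, also with RLE factors, TMM from other genes, mitochondrial genes out or the stricter filter, and 2 with DESeq2 or no filter; leaving out libraries or pairs gave 0 to 1. The block changed no member's call. Depth limits Rpl3l, with 133 counts in all; the stricter filter did not keep it.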
